A study of Mus musculus with 4 samples.

Results

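The nuclear genes of the mitochondrial respiratory chain and ATP synthase were followed through immune cells of the mouse brain after stroke. Members were all genes of the deposited annotation whose symbols begin with Nduf, Sdha, Sdhb, Sdhc, Sdhd, Uqcr, Cox4i, Cox5, Cox6, Cox7, Cox8 or Atp5, without pseudogenes and the muscle isoform Cox6a2. This gave 96 of 31053 genes, of which 46 belonged by name to complex I, 8 to complex II, 8 to complex III, 17 to complex IV and 17 to complex V. The prefixes also take in assembly factors (Ndufaf and Sdhaf genes), the supercomplex factor Cox7a2l, and Ndufa4, which carries a complex I name but is now regarded as a subunit of complex IV. C57/BL6 mice, with no further allele or treatment named in the labels, had a stroke induced by tMCAO, a temporary occlusion of the middle cerebral artery. Cells with high surface CD45 were sorted from the ischemic hemisphere 5 days later (2 libraries) or 14 days later (2 libraries) and profiled with 10x Genomics 3' v2 chemistry. The libraries are called 5a and 5b (day 5, replicates 1 and 2) and 14a and 14b (day 14, replicates 1 and 2), and values given for 4 libraries follow that order. The labels name no uninjured or sham group, no age or sex, and do not say whether a library holds 1 mouse or a pool, so p-values measure the spread between libraries. Microglia carry less CD45 than blood leukocytes, so those caught in a CD45-high gate are not all microglia of the tissue.

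Complexes I, III and IV pump protons across the inner mitochondrial membrane as electrons pass from NADH to oxygen, complex II feeds in electrons from succinate, and complex V uses the proton gradient to make ATP. Most subunits are encoded in the nucleus, but the core membrane subunits of complexes I, III, IV and V are encoded by mitochondrial DNA (the mt- genes), so each of these complexes needs transcripts of both genomes, whereas complex II is nuclear throughout. In immune cells the balance of respiration and glycolysis is known to differ between cell types and activation states, and mature neutrophils are known for few mitochondria and a mainly glycolytic metabolism.

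The libraries held 2313 to 3486 barcodes and 9288054 to 13610119 UMIs (unique molecular identifiers, each counting 1 captured RNA molecule), with 2882 to 4230 UMIs in the median barcode. Of 10841 barcodes kept, 8181 were assigned to 1 of 9 cell classes from distinct marker genes. Each class had between 5 and 9 of its own markers in the median cell and mostly 0 or 1 of those of any other class. Border-associated macrophages (69 cells, as few as 6 in a library) were too few to test, which left 8 classes. The day 5 and day 14 matrices were written by different software layouts, so day and software cannot be told apart. Pairs of libraries shared 5 to 16 barcodes. With summed cells, less RNA of a gene per cell and fewer cells carrying it cannot be told apart.

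Promoter stretches of Sdhb, Ndufa8, Atp5k and Ndufa3 are shown as examples of the motifs most linked to nuclear control of respiration, and the first 3 of these genes carry results given further on. They were taken from RefSeq (GRCm38.p6), each running 5′ to 3′ on the strand of its gene from 150 bases before the first transcribed base (position 0) to position 29. Capitals mark matches to the NRF1 motif GCGCATGC (its reverse strand reads GCATGCGC) or the YY1 motif AAGATGGC.
Sdhb (chr4:140961121-140961300, plus strand): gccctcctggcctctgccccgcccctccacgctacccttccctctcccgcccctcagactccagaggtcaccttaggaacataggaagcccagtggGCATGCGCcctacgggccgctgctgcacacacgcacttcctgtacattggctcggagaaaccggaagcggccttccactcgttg
Ndufa8 (chr2:36049309-36049488, minus strand): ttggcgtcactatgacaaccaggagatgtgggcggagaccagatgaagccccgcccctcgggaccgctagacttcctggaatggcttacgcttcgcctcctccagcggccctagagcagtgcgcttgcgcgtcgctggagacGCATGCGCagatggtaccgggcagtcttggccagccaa
Atp5k (chr5:108434370-108434549, minus strand): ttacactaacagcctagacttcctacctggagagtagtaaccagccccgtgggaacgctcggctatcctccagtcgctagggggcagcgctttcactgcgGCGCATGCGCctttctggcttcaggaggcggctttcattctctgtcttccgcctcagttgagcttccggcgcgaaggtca
Ndufa3 (chr7:3617223-3617402, plus strand): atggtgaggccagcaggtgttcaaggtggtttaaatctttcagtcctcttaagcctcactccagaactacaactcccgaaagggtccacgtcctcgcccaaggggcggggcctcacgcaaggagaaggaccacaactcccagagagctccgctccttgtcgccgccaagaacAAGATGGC
The NRF1 match begins at -54 in Sdhb and at -8 in Ndufa8, and the palindromic stretch of Atp5k holds overlapping matches on both strands at -50 and -48. The YY1 match of Ndufa3 lies downstream of the start, at position 22. NRF1 is a transcription factor known for driving nuclear respiratory genes, and YY1 is known to bind just downstream of many start sites. Across 300-base promoters (250 bases before the start and 50 from it), searched on both strands, the NRF1 motif was present in 12 of 78 members with a promoter entry (15.4%) and in 3.05% of 27025 genes. The YY1 motif was present in 10 of 78 (12.8%), against 3.19% of all genes. The ETS motif CCGGAAGT, of the family that includes GABP, was present in 5 of 78 (6.41%), against 4.31%. At least 1 of the 3 motifs stood in 26 of 78 members (33.3%) and in 9.91% of all genes. The comparison genes were all those with a promoter entry, not limited to expressed genes, and a gene counted when any of its promoters held the motif. These counts describe letters in a fixed window and carry no statement on binding.

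Within the 9 classes, complex I genes took 32.0% of all member UMIs, complex IV 27.9%, complex V 26.6%, complex III 10.9% and complex II 2.54%. Because 3' counting gives 1 tag per molecule, these are shares of molecules and are not divided by transcript length. The leading gene of each complex was Cox4i1, a core-stabilising subunit of complex IV (33775 UMIs, 4.90% of member UMIs), Atp5l, subunit g of the ATP synthase membrane part (23480), Uqcrh, the hinge protein of complex III (18322), Ndufa13, an accessory subunit of complex I (13120), and Sdhb, the iron-sulfur subunit of complex II (5990). Accessory subunits of complex I held 26.2% of member UMIs, the 7 core subunits that carry its redox centres 3.24%, and the 12 assembly factors together 1.44%. Of the 96 members, 12 shared more than 25% of the 50-base windows of their last 300 bases with another gene. The counts of Atp5l (70.1% of windows), Cox7c (65.2%), Atp5h (59.2%), Atp5g2 (55.5%) and Ndufs3 (53.0%) are therefore uncertain.

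Isoforms known from other tissues or from hypoxia were nearly missing. Cox4i2, the hypoxia- and lung-linked form of Cox4i1, had 20 UMIs in all classes together against 33775 for Cox4i1. Cox7a1, the heart and muscle form, had 108 UMIs against 11544 for Cox7a2, its common counterpart. Cox6b2, known from testis, had 255 against 19662 for Cox6b1. No UMI was counted in the 9 classes for Ndufa4l2 (a HIF target related to Ndufa4), Cox7b2, Cox8b, Cox8c or a second Atp5o identifier, whose 3' windows are shared with Donson (94.8%). Cox7a2l, which helps to join complex III and complex IV and is shortened in the C57BL/6 strain, was well detected at 16722 UMIs.

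The members' summed share of UMIs lay in a narrow band, from 1.57% to 2.55% over 8 classes and 4 libraries, a 1.62-fold range. The 13 mt- genes ranged from 1.26% to 3.51%, a 2.78-fold range. By class mean (± SD, n = 4 libraries) the order was neutrophils 1.86% ± 0.372, B cells 1.88% ± 0.17, microglia 2.09% ± 0.161, conventional dendritic cells 2.10% ± 0.0685, monocytes or macrophages 2.29% ± 0.118, T cells 2.34% ± 0.0884, plasmacytoid dendritic cells 2.37% ± 0.066 and NK cells 2.46% ± 0.114. Only the steps from B cells to microglia and from conventional dendritic cells to monocytes or macrophages were larger than the SDs of the neighbours they separate. Among genes averaging at least 100 CPM (counts scaled to a common library total), the highest class mean of a member exceeded its lowest by a median of 1.59-fold (68 members), against 2.72-fold over all 1356 such genes and 2.00-fold over 10 mt- genes. Among all 86 tested members, including those of low counts, the widest were Ndufaf6, a complex I assembly factor (14.4-fold between its highest and lowest class, on 272 UMIs in all), Cox6b2 (6.18-fold, on 255 UMIs) and Sdhaf1, an assembly factor of complex II (5.34-fold, on 893 UMIs). These 3 were picked after their values were seen.

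**Figure D1:**
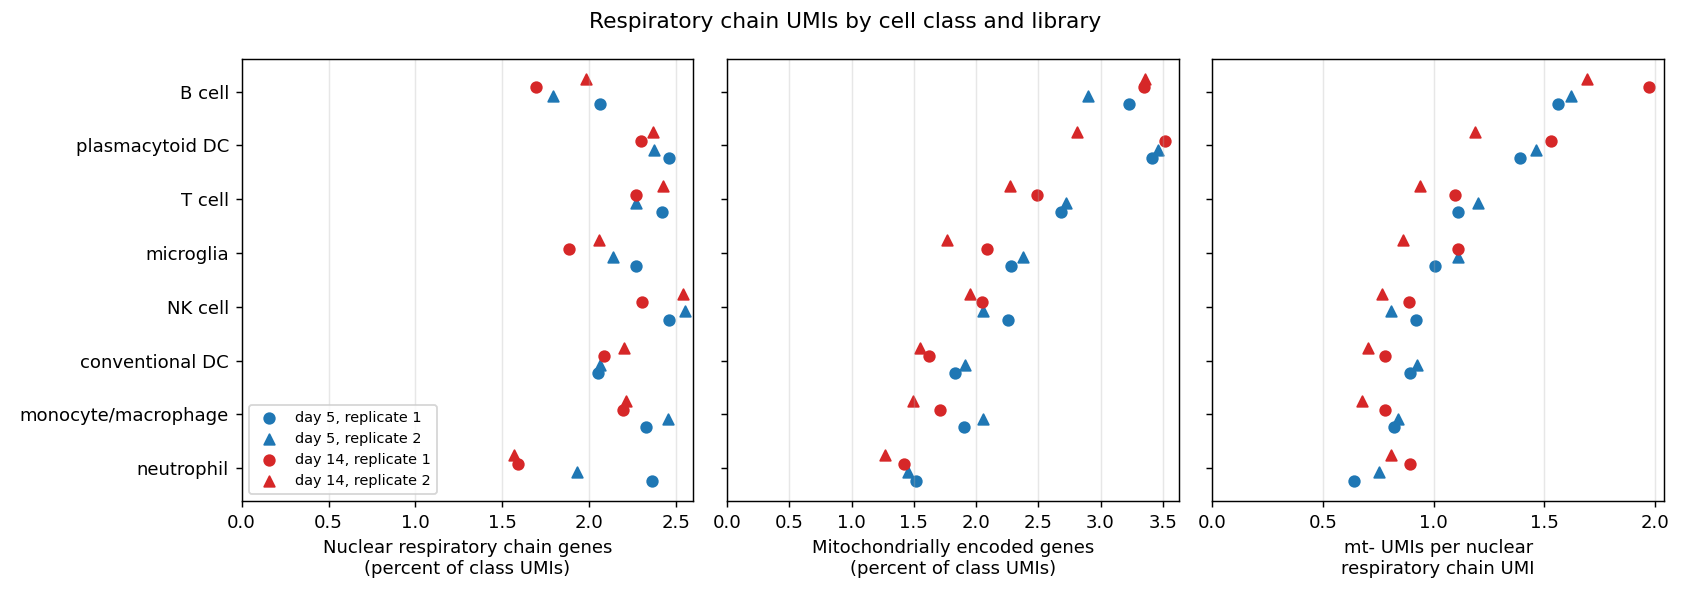
Share of UMIs from the nuclear members (left), from the 13 mt- genes (middle), and mt- UMIs per member UMI (right), for 8 classes; each point is 1 library, blue for day 5 and red for day 14. The nuclear share stays between 1.57% and 2.55%, while the ratio runs from 0.642 in neutrophils to 1.98 in B cells.

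The 2 genomes differed in how their transcripts were spread over the classes, as the plot of shares by class and library shows. B cells had 1.56, 1.62, 1.98 and 1.69 mt- UMIs per member UMI in libraries 5a, 5b, 14a and 14b, the highest of the 8 classes in each. Plasmacytoid dendritic cells had 1.39, 1.46, 1.53 and 1.19. Neutrophils (0.642, 0.753, 0.893 and 0.806) and monocytes or macrophages (0.819, 0.839, 0.780 and 0.677) were lowest by class mean, with no library overlapping those of B cells or plasmacytoid dendritic cells. This ratio needs no scaling between classes. Inside complex IV, B cells had 2.82 to 3.42 mt- UMIs per nuclear UMI and neutrophils 1.05 to 1.37, and inside complex I 0.89 to 1.24 against 0.372 to 0.56. Inside complex V, B cells had 1.24 to 1.61 and neutrophils 0.551 to 0.841. The order of the other classes was not the same in each complex, and in library 5b plasmacytoid dendritic cells exceeded B cells in complex V, where B cells had 1.24. Over the 32 class and library points the nuclear and mt- shares had a Pearson r of 0.165, given as a description because points share libraries and both shares have the same total.

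Each class was then compared with the mean of the other 7 in a fit over all 8162 tested genes (edgeR quasi-likelihood test, library as a covariate, Benjamini-Hochberg adjusted p under 0.05). Of 96 members, 86 passed the low-count filter, as did 12 of 13 mt- genes. Scaling every class by its total UMIs in place of TMM moved the median of all genes to as low as -0.32 (neutrophils) and as high as 0.20 (plasmacytoid dendritic cells) on the log2 scale. Relative to that all-gene median the members' median hardly moved: it was -0.24 to -0.23 in B cells, 0.10 to 0.11 in monocytes or macrophages and 0.07 to 0.08 in microglia over TMM, RLE and total UMI scaling. The mt- genes lay 0.73 to 0.76 above it in B cells and 0.37 in plasmacytoid dendritic cells, and between -0.42 and -0.36 in monocytes or macrophages, conventional dendritic cells and neutrophils.

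**Figure D2:**
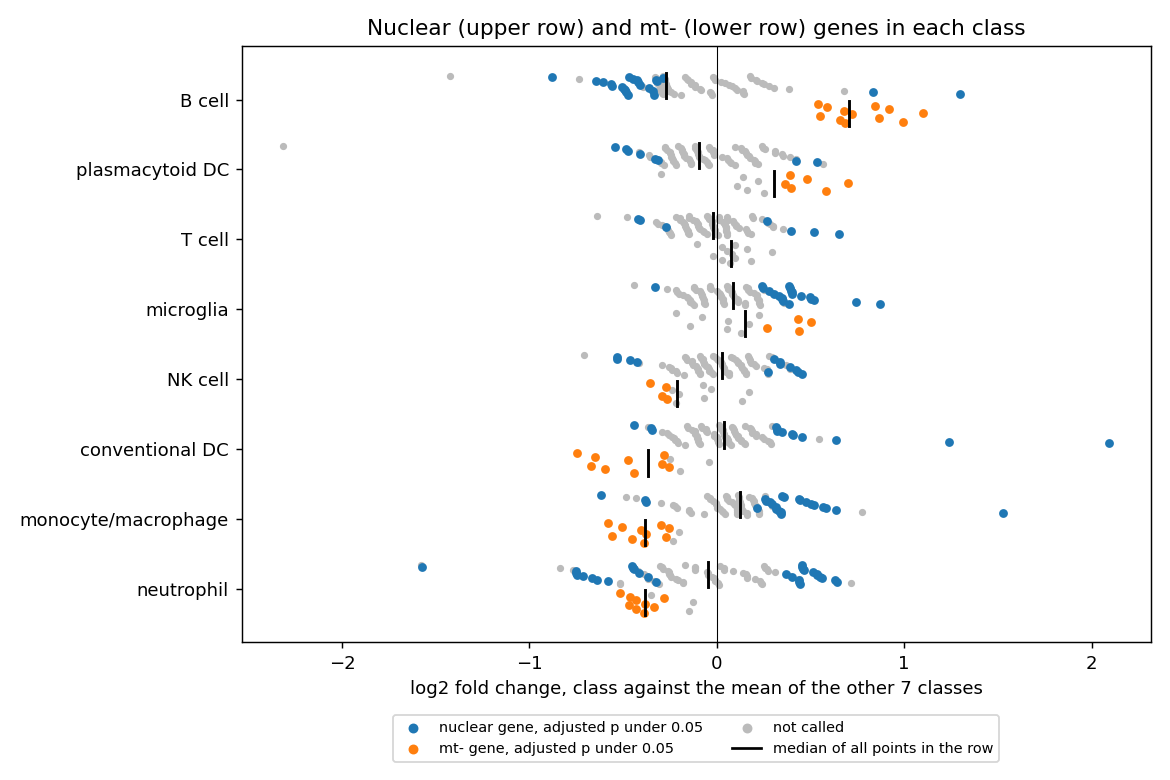
Log2 fold change of each class against the mean of the other 7, for 86 nuclear members (upper row of each class, blue where called) and 12 mt- genes (lower row, orange where called); black bars are medians. In B cells the nuclear median is -0.27 and the mt- median 0.70, and in monocytes or macrophages they are 0.13 and -0.38.

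B cells had lower nuclear and higher mt- transcripts. Of 86 members 2 were higher and 21 lower, a median of -0.27, where 12% of all genes tested were higher and 11.4% lower (23.3% in either direction). All 12 tested mt- genes were higher, with a median of 0.70 on the log2 scale. The lower members came from complex I (7 of 43), complex IV (6 of 12), complex V (5 of 15), complex III (2 of 8) and complex II (1 of 8). Sdhb, the iron-sulfur subunit of complex II, had 122, 72.4, 122 and 147 CPM in B cells against a mean of 194 in the other classes, a log2 difference of -0.64 (SE 0.14, adjusted p = 0.000908), and was lower in 4 of 4 libraries. Ndufb6, a membrane-arm subunit of complex I, had 71.4 ± 34.9 CPM (SD, n = 4) against 120 (-0.88, adjusted p = 0.0048), with 3 of 4 libraries lower than the other classes' mean in the same library. The higher members were assembly factors of complex II. Sdhaf1, which helps to fit the iron-sulfur clusters, had 43.7, 48.2, 73.9 and 81.3 CPM against 28.3 elsewhere (1.30, SE 0.31, adjusted p = 0.00183), above the mean of the other classes in every library. Sdhaf2, which attaches the flavin to Sdha, had 52.1 ± 26.6 against 28.8 (0.84, adjusted p = 0.0095). Without library 14a, which holds 222 of the 426 B cells, 1 member was called higher and 6 lower, and Ndufb6 and Sdhaf2 were no longer called (adjusted p = 0.0964 and 0.261). Without library 5a the counts were 1 and 11, and Sdhaf2 was not called (0.0579). Without library 5b they were 2 and 9, and without library 14b, where Ndufb6 was not called (0.074), 2 and 16. Jchain, a plasma cell gene, stood at 11851 CPM in library 5b and at most 19.1 in the other libraries, and its part in these values was not tested.

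Monocytes or macrophages showed the opposite split. Of 86 members 21 were higher and 3 lower (median 0.13), with 25.6% and 16.6% of all genes higher and lower (42.3% in either direction), so the share of higher members was near that background while the share of lower ones was under it. None of 12 mt- genes was higher and 10 were lower (median -0.38). RLE size factors gave 13 higher and 7 lower members, and the counts were 10 and 2 without library 14a and 12 and 2 without library 14b. Ndufc2, an accessory subunit in the membrane arm of complex I, had 257, 283, 259 and 258 CPM against 176 in the other classes (0.63, SE 0.10, adjusted p = 4.3e-06), with every library higher. Cox6b2 had 15.8 ± 5.00 CPM against 6.61 (1.53, SE 0.32, adjusted p = 0.00019). Atp5g2, which encodes the c subunit of the ATP synthase ring, was lower at 314 ± 22.1 against 414 (-0.38, adjusted p = 0.00242). Ndufaf2, a complex I assembly factor, was lower at 13.9 ± 1.54 against 20.9 (-0.62, adjusted p = 0.047), a call that ended without each library in turn (adjusted p = 0.124, 0.161, 0.0627 and 0.155).

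In microglia the members were called higher about as often as other genes. There were 20 higher and 1 lower member of 86 (median 0.08; 24.9% and 16.7% of all genes, 41.7% in either direction), and 4 higher and 0 lower mt- genes of 12. With total UMI scaling, which also lowered the all-gene median to -0.15, 8 members were higher and 15 lower, and 3 mt- genes were higher and 3 lower. Complex I supplied 12 of the 20 higher members. Sdhaf4, an assembly factor of complex II, had 63.7, 57.2, 58.7 and 70.9 CPM against 32.3 (0.87, SE 0.13, adjusted p = 1.35e-06). Ndufc2 had 305, 295, 252 and 275 against 173 (0.75, SE 0.10, adjusted p = 1.77e-07). Both were higher in each of the 4 libraries. Ndufs4, a complex I subunit whose loss causes Leigh-like disease in mice, was the lower member, at 88.7 ± 13.3 against 112 (-0.33, adjusted p = 0.0254). It was not called without library 5b, 14a or 14b (adjusted p = 0.0529, 0.34 and 0.102).

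Neutrophils had members called in both directions. Of 86 members 16 were higher and 14 lower (median -0.05; 19.9% and 10.3% of all genes, 30.2% in either direction), so the higher calls were near the background, and 9 of 12 mt- genes were lower with 0 higher. By roles assigned from general knowledge after the values were seen, 5 of the 11 common complex IV subunits were higher and 0 lower, while 3 of 5 subunits of the catalytic head of complex V, 2 of 3 c-ring genes and 2 of 7 complex I core subunits were lower with 0 higher. Cox7a2, a small subunit at the complex IV surface, had 692, 613, 403 and 515 CPM against 368 (0.64, SE 0.11, adjusted p = 2.63e-05), and every library was higher. Ndufb7, an accessory subunit facing the intermembrane space, had 338 ± 128 against 232 (0.63, adjusted p = 0.00045) and was not called without library 5a (0.133). Among the lower members, Uqcrc2, a large matrix-side subunit of complex III, had 79.8, 81.0, 77.5 and 36.8 against 123 (-0.75, SE 0.16, adjusted p = 0.000345). Cox7a2l had 342, 353, 279 and 276 against 538 (-0.75, SE 0.15, adjusted p = 0.000139). Both were lower in all 4 libraries. Sdhaf1 was lower at 11.6 ± 5.45 against 35.5 (-1.58, adjusted p = 0.0153), not called without library 5a (0.0621).

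These neutrophil calls depend on the scale and on 1 library. With total UMI scaling, which set the all-gene median at -0.32, 3 members were higher and 41 lower. Without library 5a, 4 were higher and 15 lower, and with the mt- genes left out 13 were higher and 20 lower. The order of members within neutrophils does not depend on the scale. The 16 higher members had a median transcript length of 560 bases and the 14 lower members 1183, against 707 over all 86 (median over the protein-coding transcripts of each gene, GENCODE M21). Across the 86 members, which are not independent replicates, the neutrophil difference and log length had a Pearson r of -0.60 and a Spearman rho of -0.57. In B cells both had the other sign, 0.51 and 0.42, with medians of 606 bases for 21 lower and 2298 for 2 higher members. In plasmacytoid dendritic cells the values were 0.25 and 0.39, with medians of 600 bases for 6 lower and 1394 for 2 higher members, so B cells were not alone in this sign. In the other 5 classes r lay between -0.20 and 0.18 and rho between -0.11 and 0.24. Each difference is taken against the mean of the other classes, so neutrophil values enter every other class with the opposite sign. The signs of different classes are thus not independent observations.

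**Figure D3:**
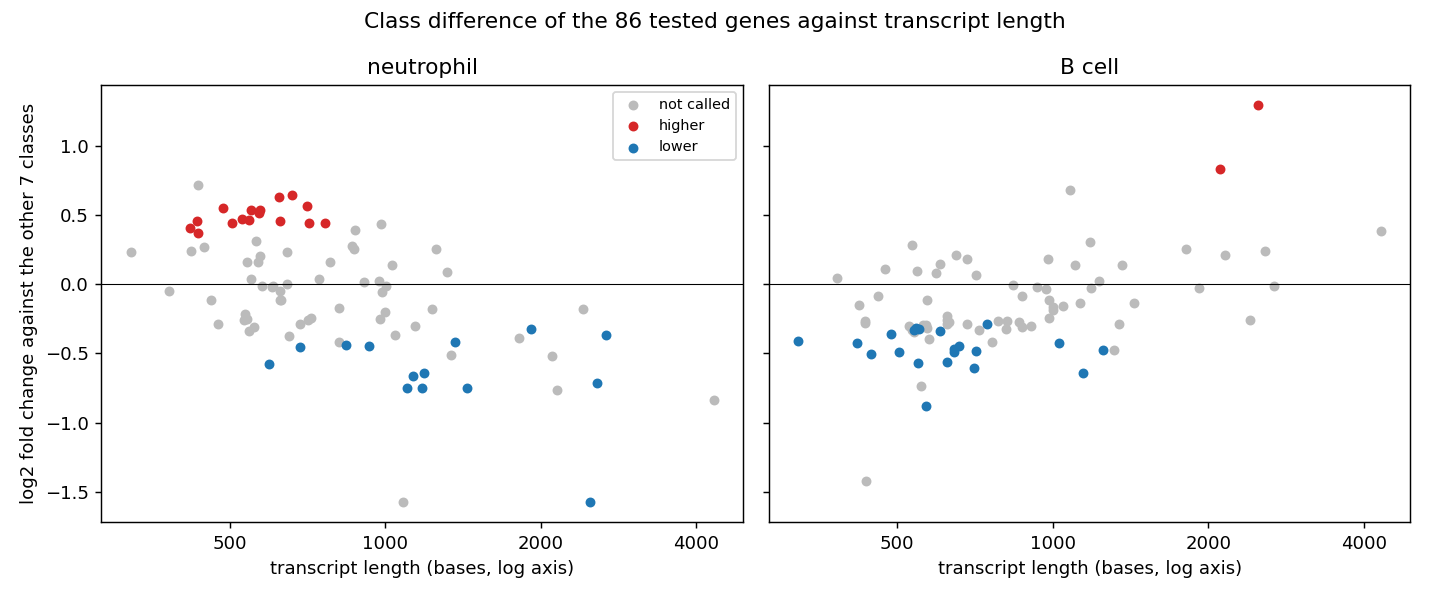
Log2 fold change of the 86 tested members in neutrophils (left) and B cells (right) against the other 7 classes, by transcript length on a log axis; red points were called higher and blue ones lower. In neutrophils the higher members have a median length of 560 bases and the lower ones 1183.

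The remaining classes held fewer differences. Conventional dendritic cells had 10 higher and 3 lower members (19.9% and 11.3% of all genes, 31.2% in either direction) and 9 lower mt- genes of 12, but RLE size factors gave 9 and 8 members and total UMI scaling 8 and 8. Member counts fell to 7 and 1 without library 5a, 3 and 2 without library 14a and 6 and 1 without library 14b. Ndufaf6 had 21.2, 10.3, 20.6 and 25.4 CPM against 5.39 (2.09, SE 0.32, adjusted p = 2.46e-06), each library being higher. Cox6b2 was also higher (13.7 ± 4.42 against 6.92; 1.24, adjusted p = 0.00799; 0.0631 without library 14b). Ndufa4 was lower at 282 ± 48.8 against 387 (-0.44, adjusted p = 0.00494; 0.0548 and 0.0505 without library 5a or 5b). Ndufv3, an accessory subunit of the NADH-oxidising module, was lower at 150 ± 7.14 against 189 (-0.35, adjusted p = 0.0298; 0.0977, 0.0872 and 0.0941 without library 5b or 14a or 14b).

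Plasmacytoid dendritic cells had 2 higher and 6 lower members (12.5% and 9.64% of all genes, 22.2% in either direction) and 6 higher mt- genes of 12. RLE gave 3 and 4 members and total UMI scaling 17 and 0, and 3 or 4 members were called without any 1 library. Ndufs8, a core iron-sulfur subunit of complex I, was higher at 190 ± 25.2 CPM against 133 (0.53, adjusted p = 0.0112; 0.102 without library 14a). Sdha, the flavoprotein of complex II, was higher at 142 ± 26.5 against 105 (0.42, adjusted p = 0.0412, and 0.069 to 0.171 without each library in turn). Ndufb7 was lower at 172 ± 25.4 against 256 (-0.55, adjusted p = 0.0121; 0.0713 without library 14b). Ndufc2 was lower at 133 ± 33.9 against 195 (-0.48, adjusted p = 0.0189), but not without library 5a, 14a or 14b (0.0855, 0.0737 and 0.0717).

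T cells and NK cells shared 2 of their named members. T cells had 4 higher and 3 lower members (18.6% and 16.9% of all genes, 35.5% in either direction; 15 and 0 by total UMI scaling), and NK cells 8 and 4 (15.7% and 18.4% of all genes, 34% in either direction; 13 and 4 by RLE and 25 and 2 by total UMI). Atp5g3, a c-ring gene of ATP synthase, was higher in T cells at 192 ± 56.2 CPM against 143 (0.52, adjusted p = 0.00311; 0.0724 without library 14a) and in NK cells at 189 ± 43.4 against 143 (0.43, adjusted p = 0.0165; 0.0501 and 0.156 without library 14a or 14b). Ndufs8 was lower in T cells (111 ± 24.3 against 144; -0.42, adjusted p = 0.0274; 0.0626, 0.297 and 0.158 without library 5a or 14a or 14b) and in NK cells (a mean of 96.1 against 147, with 4 of 4 libraries lower; -0.53, adjusted p = 0.00685; 0.131 and 0.0525 without library 5a or 14a). In T cells Ndufaf4, an assembly factor, was higher (39.7 ± 18.2 against 22.2; 0.65, adjusted p = 0.0229; 0.0626 and 0.0992 without library 14a or 14b) and Uqcrq, a small subunit of complex III, lower (246 ± 37.3 against 340; -0.41, adjusted p = 0.00443). In NK cells Ndufb11, a membrane-arm subunit of complex I, was higher (277 ± 49.9 against 204; 0.45, adjusted p = 0.00249). Ndufc2, high in microglia and monocytes or macrophages, was lower in NK cells (125 ± 36.8 against 196; -0.53, adjusted p = 0.00187). Without each library in turn 1 to 8 members were called in T cells and 6 to 10 in NK cells, the lowest without library 14a for T cells (0 higher, 1 lower) and without library 14b for NK cells (3 and 3). In T cells 4 members (3 and 1) remained called without library 5a and 2 (1 and 1) without library 14b, and in NK cells 7 (5 and 2) without library 14a.

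Between day 5 and day 14 few members differed by the test within any class. By edgeR at an adjusted p under 0.05, 0 members were called in microglia (90 tested; of all genes 3.22% higher, 1.15% lower and 4.37% in either direction), monocytes or macrophages (87; 4.7%, 1.37% and 6.06%), T cells (83; 0.482%, 0.482% and 0.963%), B cells (73; 4.62%, 0.633% and 5.25%) and plasmacytoid dendritic cells (76; 1.33%, 0.0831% and 1.41%). At an unadjusted p under 0.05 these classes had 5, 9, 4, 4 and 3 members, and DESeq2 called 0 in each. NK cells had 1 called member of 82, which was higher (4.4% of all genes higher, 2.62% lower, 7.02% in either direction). Neutrophils had 3 of 75, all lower (10.1%, 3.62% and 13.7%), and conventional dendritic cells 10 of 87 (6.97%, 6.34% and 13.3%). The members' median difference lay between -0.07 and 0.09 on the log2 scale in 7 classes and was -0.53 in neutrophils. Total UMI scaling moved the medians to -0.20 in microglia, -0.15 in monocytes or macrophages and -0.13 in B cells, with the all-gene median moving alongside to -0.14, -0.12 and -0.21.

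**Figure D4:**
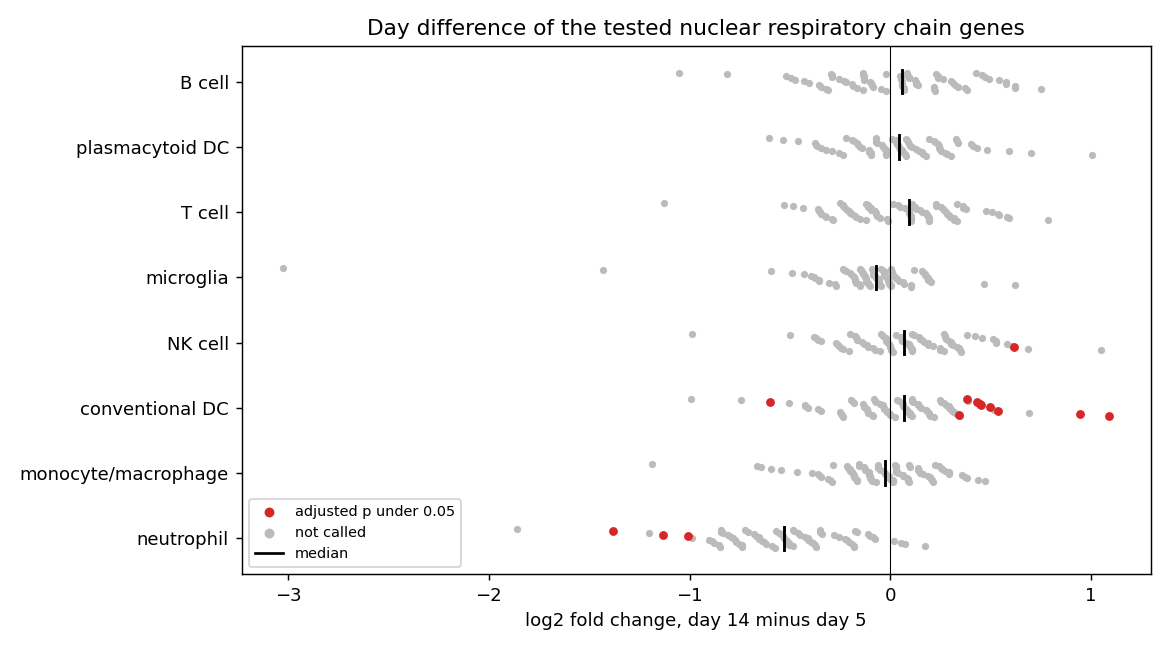
Log2 fold change from day 5 to day 14 for every tested member in each class; red points passed an adjusted p of 0.05 and black bars are medians. The neutrophil points are shifted to the left with a median of -0.53, and the other medians lie between -0.07 and 0.09.

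In neutrophils the members were lower on day 14 as a group, though few passed the test singly. Their summed share of UMIs went from 2.36% and 1.93% to 1.59% and 1.57%, and the days did not overlap. Of 75 members that passed the low-count filter 71 were lower on day 14. Without the filter 86 of 90 were lower, with a member median of -0.63 against -0.35 over all genes, so the gap to all genes was smaller there. Only 3 were called, or 4.00% of those tested, near the 3.62% of all genes called lower. With the filter the median was -0.53 against -0.02 over all genes, between -0.65 and -0.35 under the other gates for cells, and -0.61 to -0.44 without each library in turn. Each complex shared the direction: 35 of 37 tested members were lower in complex I, 4 of 4 in complex II, 7 of 8 in complex III, 11 of 11 in complex IV and 14 of 15 in complex V. The 10 tested mt- genes had a median of -0.18, with 0 called.

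Ndufa8, an accessory subunit of complex I whose promoter is shown above, went from 185 and 188 CPM to 89.1 and 50.6 (-1.38, SE 0.35, adjusted p = 0.0292). Ndufv3 went from 225 and 270 to 130 and 92.8 (-1.13, SE 0.30, adjusted p = 0.0367). Atp5h, a stalk subunit of ATP synthase, went from 547 and 589 to 302 and 262 (-1.01, SE 0.22, adjusted p = 0.0168). For all 3 the days did not overlap. Cox4i1, the leading member, went from 1046 and 992 to 891 and 878 (-0.20, adjusted p = 0.564). DESeq2 called 0 members in neutrophils, and without library 14b Ndufa8, Ndufv3 and Atp5h had adjusted p-values of 0.114, 0.135 and 0.0556. Ndufv3 was also not called without library 5b (0.0838) or 14a (0.0549), or with the strict gate (0.078). The number called was 6 without library 5a, 5 without library 5b or 14a, 2 without library 14b, 8 with the stricter gate and 7 without the low-count filter.

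Other features of the neutrophils moved with this difference. The libraries held 163 and 180 neutrophils on day 5 and 68 and 55 on day 14. Transcripts of secondary granule proteins, made in immature neutrophils, were abundant on day 5 and scarce on day 14: Camp stood at 12787 and 26532 CPM of all UMIs, then at 1121 and 0, and Ngp at 14092 and 27126, then at 1186 and 0. Csf3r, the G-CSF receptor, ran the other way, from 346 and 241 to 722 and 669, as did Cxcr2, from 216 and 145 to 303 and 476. Retnlg, S100a8 and S100a9, which like Csf3r and Cxcr2 are markers of the gate, fell. Retnlg went from 3391 and 5134 to 284 and 354. S100a8 went from 66063 and 115656 to 28296 and 32269, and S100a9 from 36806 and 64806 to 17831 and 21786. The 10 neutrophil markers together took 11.1% and 18.9% of UMIs on day 5 and 5.20% and 6.15% on day 14, with none at 0. S100a8 and S100a9 made up most of these sums, so the sums say little of the remaining markers. Mmp9, Il1r2, Hdc, G0s2 and Clec4d of the gate are not given singly. The 8 monocyte or macrophage markers took 0.382% and 0.614%, then 0.240% and 0.136%, with none at 0, and the 9 microglial markers 0.199% and 0.128%, then 0.103% and 0.0715%, with 1 at 0. The part of these in the lower member levels was not tested.

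Conventional dendritic cells had 9 members higher and 1 lower on day 14 (10 of 87; 6.97% of all genes were higher and 6.34% lower). Cox7a2l was the lower one, from 765 and 759 CPM to 501 and 505 (-0.60, SE 0.10, adjusted p = 0.00161). Its libraries differed by under 10 CPM within a day and the days did not overlap. It was called under each alternative listed among the processing steps that was run here. Leaving out mixed lymphocytes was not run for day differences of this class. Sdhaf1 went from 21.4 and 30.9 to 68.4 and 45.1 (1.09, SE 0.29, adjusted p = 0.0314). Ndufaf3, a complex I assembly factor, had 23.7 and 19.7, then 48.7 and 37.6 (0.95, SE 0.27, adjusted p = 0.0419). Atp5g3 had 118 and 124, then 188 and 165 (0.54, SE 0.15, adjusted p = 0.0326). In each the days did not overlap. The other higher members, listed because they complete the count, were Cox5b and Cox7c of complex IV, Uqcrq of complex III and Atp5b, Atp5e and Atp5k of complex V, with log2 differences of 0.34 to 0.50. None of the 29 accessory and 7 core subunits of complex I was called.

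The higher calls in conventional dendritic cells were less steady than the lower one. DESeq2 called 0 higher and 1 lower, and the stricter gate 1 and 1. Without library 5a or 5b there were 3 higher and 1 lower. Sdhaf1 was lost without library 5a (0.107), Atp5g3 without library 5a, 5b or 14a (0.153, 0.0586 and 0.091), and Ndufaf3 without the same libraries (0.0527, 0.108 and 0.0658). Ndufaf3 was also lost with total UMI scaling (0.0526) and with the strict gate (0.0921), and the loose gate reduced it to 0.35 (adjusted p = 0.354). Sdhaf1 was also lost with the strict gate (0.144), and Atp5g3 with the strict gate (0.0589) and the loose gate (0.0594). Subset markers of these cells also moved: Cd209a, a marker used to assign this class, went from 553 and 550 CPM of all UMIs to 307 and 316. Ccr7, of migrating dendritic cells, had 279 and 230, then 739 and 784, and Epcam 218 and 150, then 17.1 and 17.2. Ccr7 and Epcam were likewise used to assign this class. Whether a changed mix of subsets takes part in the member differences was not tested.

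The difference between days was itself compared between classes. Against monocytes or macrophages, the day effect in conventional dendritic cells differed for 2 of 88 members (of all genes 1.35% up, 2.92% down, 4.27% in either direction). Atp5g3 differed by 0.88 (SE 0.20, adjusted p = 0.0211) and Cox7a2l by -0.69 (SE 0.17, adjusted p = 0.0343). Cox7a2l in monocytes or macrophages went from 338 and 414 CPM to 446 and 356, overlapping values. Without library 5a or 14a neither passed (0.0899 and 0.059 for Atp5g3, 0.118 and 0.188 for Cox7a2l), Cox7a2l did not pass with total UMI scaling (0.0689), and DESeq2 called 0. Between microglia and monocytes or macrophages 0 of 88 members differed (of all genes 0.0835% up, 0.31% down, 0.393% in either direction; 2 at an unadjusted p under 0.05; 0 with DESeq2). In NK cells Cox7a2l ran the other way from conventional dendritic cells, from 468 and 383 to 695 and 616 (0.61, SE 0.19, adjusted p = 0.0369). The days did not overlap, but the call was lost with DESeq2 (0.211), total UMI scaling (0.142) and without library 5a, 5b or 14a (0.14, 0.464 and 0.121). The difference between NK cells and conventional dendritic cells was not tested.

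Among mt- genes, mt-Nd2 rose in B cells (from 906 and 935 CPM to 1639 and 1367; 0.71, adjusted p = 0.0268). The 11 mt- genes tested there had a median difference of 0.29, which lay 0.31 above the median of all genes. In conventional dendritic cells mt-Atp6 fell by 0.31 on the log2 scale (4612 and 4855, then 3783 and 3848; adjusted p = 0.0098) and mt-Cytb fell by 0.32 (1626 and 1710, then 1364 and 1304; adjusted p = 0.0235), in the class where 9 nuclear members rose. The mt-Nd2 call in B cells was the only mt- call there, and 0 mt- genes were called with total UMI scaling or without library 14a. In conventional dendritic cells DESeq2 called 0 mt- genes, and 4 fell without library 14a.

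Companion genes of the pathway, 69 in 9 lists, were read in the same fits. Between days 2 of 55 tested companions rose and 2 fell in conventional dendritic cells, 0 of 26 rose and 2 fell in neutrophils, 1 of 66 rose and 2 fell in microglia, 1 of 59 rose and 1 fell in monocytes or macrophages, and 1 of 43 rose in NK cells, with 0 called in T, B and plasmacytoid dendritic cells. Cycs, the cytochrome c that carries electrons from complex III to complex IV, rose in conventional dendritic cells from 408 and 428 CPM to 709 and 904 (0.95, SE 0.13, adjusted p = 0.000458), as did Cox17, a copper chaperone of complex IV (225 and 244, then 306 and 376; 0.55, adjusted p = 0.0205; 0.0791 and 0.109 without library 5a or 14b, and 0.132 with DESeq2). Mdh2, the malate dehydrogenase of the citric acid cycle, fell there by 1.04 (591 and 589, then 269 and 302; adjusted p = 0.000105) and in neutrophils by 1.37 (356 and 426, then 164 and 135; adjusted p = 0.00947). The other fallen companions of the citric acid cycle, named to complete the counts and not followed under the alternatives, were Idh2 in conventional dendritic cells and microglia and Idh3a in monocytes or macrophages. Surf1, a complex IV assembly factor, rose in microglia from 32.7 and 41.0 CPM to 65.9 and 63.3 (0.80, adjusted p = 0.0356; 0.256 and 0.106 without library 5a or 14a, 0.0841 with total UMI scaling and 0.159 with DESeq2).

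AA467197, the mouse Nmes1 gene, is related to Ndufa4 and has been described as taking its place in complex IV under inflammation. Its neutrophil difference was larger than any class difference of a member given above. Neutrophils had 688, 739, 419 and 405 CPM against a mean of 84.4 in the other classes (3.49, SE 0.31, adjusted p = 1.69e-11). Conventional dendritic cells had 242 ± 40.5 (2.07, adjusted p = 4.73e-07) and monocytes or macrophages 183 ± 79.1 (1.61, adjusted p = 2.58e-05; the fit averages the other classes on a log scale, and by plain means only 2 of 4 libraries were higher), while T cells (28.7 ± 24.1; -1.73, adjusted p = 0.0054; 0.0731 without library 14a) and plasmacytoid dendritic cells (15.1 ± 9.19; -2.53, adjusted p = 0.0111; 0.0712 without library 5a) were lower. Ndufa4 itself spanned only 282 to 483 CPM over the 8 class means. Per 100 UMIs of Ndufa4, neutrophils had 213, 157, 200 and 113 UMIs of AA467197 and microglia 22.0, 14.1, 3.68 and 8.71.

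**Figure D5:**
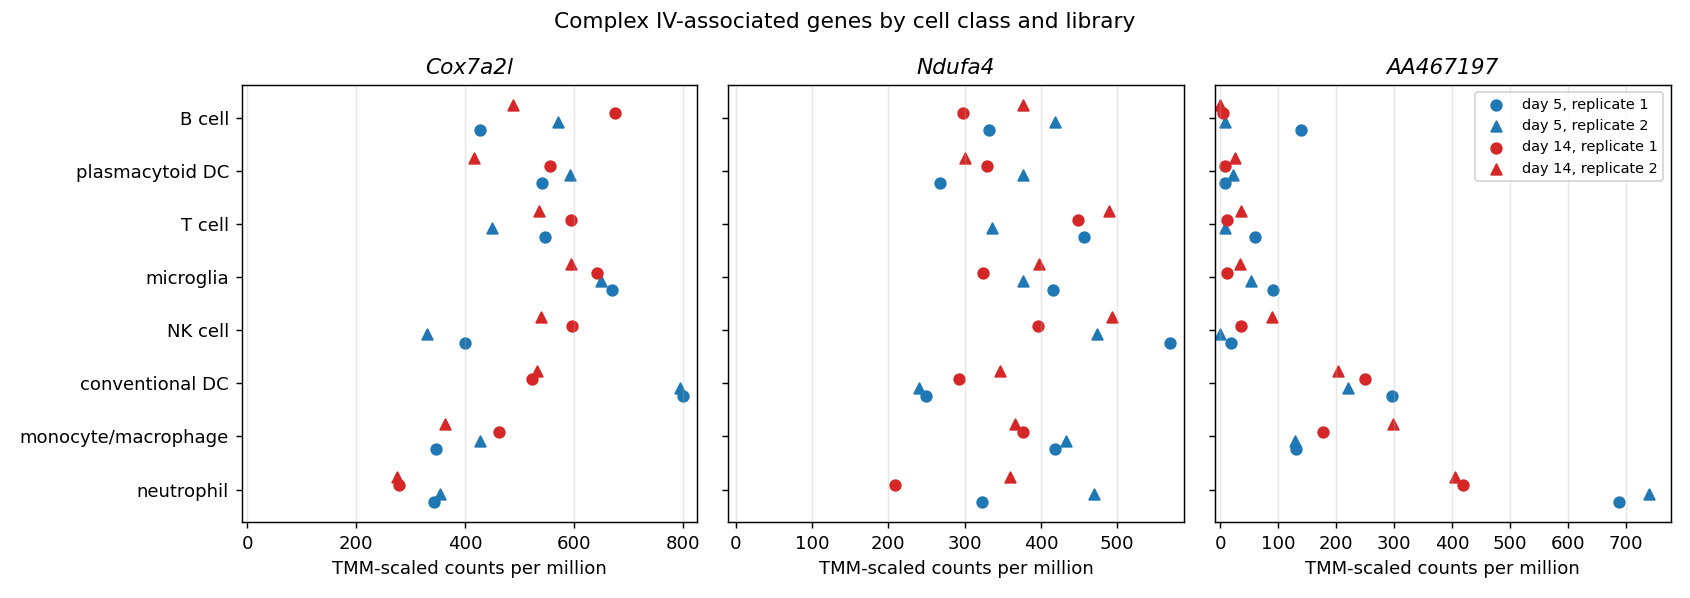
Scaled CPM of Cox7a2l, Ndufa4 and AA467197 in each class; each point is 1 library, blue for day 5 and red for day 14. Cox7a2l separates the days in conventional dendritic cells (801 and 794 against 522 and 533 on the scale shared by all classes), and AA467197 is highest in neutrophils at 405 to 739.

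The day differences of AA467197 had unlike signs in different classes. It fell in microglia from 81.3 and 46.9 to 10.8 and 30.9 CPM (-1.74, adjusted p = 0.0475) and in neutrophils from 629 and 678 to 370 and 371 (-0.82, adjusted p = 0.0302). It rose in monocytes or macrophages from 126 and 125 to 170 and 290 (0.89, adjusted p = 0.0438) and in NK cells from 22.0 and 0 to 41.5 and 102 (2.60, adjusted p = 0.00941, on 4 and 0 UMIs against 21 and 68). In these 4 classes the days did not overlap. In conventional dendritic cells it had 283 and 211, then 238 and 193 (adjusted p = 0.451). These calls did not hold without some libraries: in microglia the adjusted p was 0.184 without library 14a, in monocytes or macrophages 0.258 without library 14b, in NK cells 0.103 without library 5b, and in neutrophils 0.106, 0.139 and 0.0839 without library 5b or 14a or 14b. They were also lost in monocytes or macrophages with total UMI scaling (0.0657), DESeq2 (0.0505), the strict gate (0.324) and the loose gate (0.0769), and in microglia with RLE (0.0561), the strict gate (0.0655) and the loose gate (0.0998). In neutrophils total UMI scaling (0.0739), DESeq2 (0.171) and the loose gate (0.0653) ended the call, and in NK cells the loose gate (0.0915). Markers of cell state moved in these classes too. In microglia P2ry12, a homeostatic marker, went from 730 and 887 CPM of all UMIs to 456 and 292, and Cst7, a marker of activated microglia, from 290 and 290 to 1593 and 1807. In monocytes or macrophages Ly6c2 went from 916 and 1137 to 3894 and 3577, and Chil3 from 4223 and 4426 to 1024 and 588. The 8 NK markers together went from 1.92% and 1.66% of NK cell UMIs to 0.689% and 0.687%, with none at 0, and the neutrophil markers are given above. Their part in the AA467197 differences was not tested. Ndufa4 was not called between days in any class.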

How the data were processed

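The authors deposited raw UMI counts per gene and cell barcode for 4 libraries; the values are whole numbers with unequal totals, and no normalization was seen in them. The mouse build GRCm38 (mm10), Seurat 2.3.4 and Cell Ranger 3.0.1 are listed without roles, per the submitters' processing notes. Barcode and gene lists were deposited beside the counts. The day 5 headers name version 3.0.1, and the day 14 headers are empty and in an older layout.

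Barcodes with 200 or more genes and at most 10% mt- UMIs were kept (10841 of 10925). A cell took a class when at least 3 distinct markers of that class were detected, 2 more than of any other class (84 markers, 9 classes). Of the 8181 cells assigned, 1760 lay at the edge of the gate. No doublet caller was run. UMI counts were summed per class and library and fitted with edgeR 4.0.16 (filterByExpr, TMM, quasi-likelihood test, Benjamini-Hochberg adjustment over all genes tested, threshold 0.05): day within a class, class against the mean of the others with library as covariate, and day by class interaction for 2 pairs. CPM are TMM-scaled within the fit they are printed with, so day and class values differ slightly. Marker genes are given as CPM of all UMIs without TMM. An SE is the log2 difference divided by the square root of its F statistic. Only the day fit was run on simulated counts, for microglia and T cells, with results not given here. The class and interaction fits were not.

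Members and gene lists were chosen with earlier results of these data known. Named were the 3 called members with the largest change each way between days, the 2 each way per class, the leading gene of each complex, fixed complex IV isoforms and partners, up to 2 called companions per list and 3 members per interaction; others are said to be chosen after their values were seen. Alternatives were RLE, total UMI scaling, DESeq2 1.42.0, no count filter, strict and loose gates, no mt- limit, mixed lymphocytes (over 2% of UMIs from phagocyte genes) left out, mt- genes left out, each library left out and a replicate block.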

Additional observations from a re-analysis of the deposited data

Results flagged for a closer look

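By an interaction term in edgeR's quasi-likelihood fit, the day 14 against day 5 difference differed between conventional dendritic cells and monocytes or macrophages for 2 of 88 members, a smaller share than the 4.27% of all genes called. For Atp5g3 the difference of the day effects was 0.88 (log2, dendritic cells minus monocytes or macrophages) and for Cox7a2l it was -0.69. DESeq2 called 0 members. Without library 5a (day 5, replicate 1) the adjusted p was 0.0899 for Atp5g3 and 0.118 for Cox7a2l, and without library 14a (day 14, replicate 1) 0.059 and 0.188. Cox7a2l did not pass with total UMI scaling (0.0689).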

How the results depend on the processing

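Of the values that answer a comparison, 414 recomputed under an alternative stayed near the main value and 100 moved. Counts of called members were judged by their total in both directions, and medians, shares and ratios by the spread between libraries. Direction was not checked, so a total could stay while calls shifted from higher to lower. This happened in microglia and neutrophils against the other classes with total UMI scaling. For single genes 1376 kept their side of the threshold, 160 lost it, 28 gained it and 1 reversed: Cox4i1 in neutrophils against the other classes was -0.26 (adjusted p = 0.0306) with total UMI scaling. With 1 library left out, a day has a lone library that is assumed to vary like the others.

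Members called between days, without each library in turn, were 0 to 1 in B cells, NK cells and monocytes or macrophages, 4 to 10 in conventional dendritic cells and 2 to 6 in neutrophils. In NK cells (1 called) total UMI scaling, DESeq2, the strict gate and the loose gate gave 0, and no filter gave 2. DESeq2 gave 1 in conventional dendritic cells (10 called) and 0 in neutrophils (3 called), and the strict gate 2 and 8. No filter gave 1 in B cells, T cells, microglia and monocytes or macrophages and 7 in neutrophils. Total UMI scaling gave 1 in microglia and 2 in monocytes or macrophages.

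Median day differences with total UMI scaling were -0.13 (B cells), -0.082 (NK), 0.017 (T), -0.20 (microglia), -0.15 (monocytes or macrophages) and -0.061 (plasmacytoid dendritic cells). Without the filter they were 0.20 (B), 0.23 (T), -0.63 (neutrophils) and 0.11 (plasmacytoid dendritic cells). The strict gate gave -0.65 and the loose gate -0.35 in neutrophils, and the loose gate 0.011 in T cells. In plasmacytoid dendritic cells RLE gave 0.029, DESeq2 0.021, the strict gate 0.026, the loose gate 0.021, no mt- limit 0.047, mt- genes left out 0.045 and the replicate block 0.033. Without each library in turn the medians were -0.0063 to 0.18 (NK), 0.012 to 0.19 (T), -0.077 to 0.0075 (monocytes or macrophages), -0.61 to -0.44 (neutrophils) and 0.0016 to 0.093 (plasmacytoid dendritic cells).

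Members called between classes, without each library in turn, were 7 to 18 (B), 6 to 10 (NK), 1 to 8 (T), 5 to 9 (conventional dendritic cells), 12 to 21 (monocytes or macrophages), 19 to 26 (neutrophils) and 3 to 4 (plasmacytoid dendritic cells). Total UMI scaling gave 27 (NK), 15 (T) and 17 (plasmacytoid dendritic cells), DESeq2 19 (NK), 17 (T) and 24 (conventional dendritic cells), no filter 7 (NK), 4 (T) and 5 (plasmacytoid dendritic cells), and the loose gate 21 (NK). For the day effect of conventional dendritic cells minus monocytes or macrophages, 1 to 3 were called without each library in turn, 0 with DESeq2, 6 without the filter and 5 with the loose gate.

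The day 14 neutrophil share was 1.44% with the strict and 1.77% with the loose gate, and the day 5 share of conventional dendritic cells 2.04% with the strict gate. The mt- UMIs per member UMI were 0.924 (loose gate) and 0.920 (no mt- limit) in day 14 neutrophils. On day 5 they were 1.35 in plasmacytoid dendritic cells (loose gate), 1.09 in T cells (strict gate) and 1.67 in B cells (mixed lymphocytes left out). Where a cause is not part of the alternative itself, the cause was not tested.

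The labels do not say that replicate numbers pair libraries, and deviations of same-numbered libraries correlated between -0.21 and 0.01. With the replicate block 2 members were called in NK cells and 8 in neutrophils, and the 10 of conventional dendritic cells and 0 of the other 5 classes were unchanged in number. With 2 libraries a day and as few as 27 cells in a class and library, depth limits what the day comparison could detect.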
